A study of Mus musculus with 3 samples.

Results

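The genes Gja4, Sema3g and Hey1, used as markers of arterial endothelial cells (ECs), were followed in 3 targeted single-cell RNA-seq libraries of mouse bone marrow (BM). They were taken by gene symbol and made up 3 of the 125 targets of a custom primer panel that had a molecule in at least 1 library. Gja4 encodes the gap junction protein connexin 37, Sema3g a secreted class 3 semaphorin, and Hey1 a basic helix-loop-helix transcriptional repressor that is a direct target of Notch signalling. Arterial ECs acquire their identity in large part through Notch signalling, and these transcripts are commonly read together as its signature. In marrow, arteries and arterioles carry little Stab1, a scavenger receptor of sinusoidal ECs, and they are known as a source of factors that act on haematopoietic stem and progenitor cells.

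All animals were wild type C57/B6 mice. E18.5 EC was a library of ECs sorted from embryonic marrow. Its gate is described in 2 ways, by CD31 together with endomucin and by CD31 only. The paper defines arterial ECs by CD31 without endomucin or by high caveolin-1. A gate on endomucin could therefore change the share of arterial cells in this library, and which gate was used is not known here. E18.5 BM cells was a library of embryonic marrow and Adult BM cells one of adult marrow, from both of which lineage-positive cells had been removed, and an adult age was not given in the labels used here. Several animals were pooled in each library, and there was 1 library per group, so no test across samples was possible and a difference between stages cannot be told apart from library, sort and depth. Intervals below are 95% exact limits on counting error within a library (Poisson for molecules, Clopper-Pearson for shares of cells). Those for molecules take molecules as independent and leave out the spread between cells.

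The libraries held 4038, 12844 and 7939 cells after removal of cells with under 20 molecules or under 5 targets, with medians of 83, 97 and 242 molecules per cell. Where 3 values stand together below, they are in the order E18.5 EC, E18.5 BM cells, Adult BM cells. Each pair of libraries shared between 38 and 113 cell barcodes. Gja4 had 4592, 771 and 10087 molecules in these libraries, Sema3g had 2389, 479 and 13521, and Hey1 had 2068, 1428 and 3224. Cells with at least 5 molecules of Pecam1 and Kdr (the genes of CD31 and of the VEGF receptor VEGFR2) together and none of Ptprc (the gene of CD45, carried by haematopoietic cells) were called endothelial-like. They numbered 2954 cells or 73.2% of E18.5 EC, 378 cells or 2.94% of E18.5 BM cells, and 1837 cells or 23.1% of Adult BM cells. Pecam1 took 2766, 2671 and 1010 of every 10000 molecules in the endothelial-like cells of the 3 libraries. These cells also carried molecules of other cell types, and the summed level of the mural markers Acta2, Rgs5 and Tagln was 18.2, 87.2 and 1277 per 10000.

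Each amplicon lay at the end of its reference transcript. In GRCm38, the transcript of Gja4 spans chromosome 4 from 127311421 to 127314039 on the minus strand with 2 exons. That of Sema3g spans chromosome 14 from 31217860 to 31230352 on the plus strand with 16 exons, and that of Hey1 spans chromosome 3 from 8663359 to 8667256 on the minus strand with 5 exons. The promoter table matched 2 of the 3 genes, Gja4 and Sema3g, and not Hey1. The stretches just before the start sites of these 2 are shown, as RefSeq gives them in GRCm38.p6. They run 5′ to 3′ on the strand of the gene, with searched motifs in capitals.
Gja4, chr4:127314053-127314289, minus strand: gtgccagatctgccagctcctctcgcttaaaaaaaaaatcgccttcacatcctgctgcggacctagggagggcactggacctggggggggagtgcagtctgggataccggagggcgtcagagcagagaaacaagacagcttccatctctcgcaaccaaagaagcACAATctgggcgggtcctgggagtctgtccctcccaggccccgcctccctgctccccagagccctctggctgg
Sema3g, chr14:31217623-31217859, plus strand: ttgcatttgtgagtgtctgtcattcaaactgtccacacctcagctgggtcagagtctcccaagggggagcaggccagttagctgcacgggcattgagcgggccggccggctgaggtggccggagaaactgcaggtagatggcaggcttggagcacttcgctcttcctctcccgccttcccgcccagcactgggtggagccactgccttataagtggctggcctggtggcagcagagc
On both strands, the letters searched were TGGGAA for RBPJ, the DNA-binding partner of Notch, ACAAT for SOX factors and CCGGAA for ETS factors. The stretch of Gja4 held 1 ACAAT and that of Sema3g held none of the 3 motifs. Among 32851 mouse promoters of the table, 20.6% held the RBPJ letters, 26.9% the SOX letters and 10.9% the ETS letters, so the match in Gja4 is a description of these letters and not a site.

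In endothelial-like cells all 3 genes were present in every library, and their proportions differed between the embryonic and the adult libraries. Levels are given as molecules per 10000 panel molecules of the same cells. Primers differ in efficiency, so levels were compared within a gene and not between genes. Gja4 had levels of 164 (159 to 169), 117 (107 to 128) and 226 (222 to 231). Sema3g stood at 85.5 (82.0 to 89.1), 57.6 (50.3 to 65.7) and 321 (315 to 326). Hey1 stood at 70.7 (67.6 to 74.0), 63.9 (56.1 to 72.4) and 45.2 (43.1 to 47.3). Sema3g was thus highest in the adult library and Hey1 in the embryonic ones, where its intervals overlapped.

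The ratio of E18.5 EC to Adult BM cells was 0.266 (0.255 to 0.279) for Sema3g, 0.724 (0.698 to 0.751) for Gja4 and 1.57 (1.47 to 1.67) for Hey1. Of the 3 genes, Sema3g alone passed a 2-fold difference, with 42.1% of the 95 targets compared being at least 2-fold lower and 32.6% at least 2-fold higher in E18.5 EC. These values depended on the scale. Without the 5 most abundant other targets of each library, the ratio was 0.495 for Sema3g and 2.91 for Hey1, and that of Gja4 turned to 1.35. The targets left out were chosen in each library, with Pecam1 first in E18.5 EC and Col2a1 in Adult BM cells, so they need not be the same. Under the other alternatives the Gja4 ratio was 0.523 to 0.766. The direction of Gja4 between stages thus depended on the scale. E18.5 EC and E18.5 BM cells, prepared separately from embryos of one age, differed by 1.40-fold (1.27 to 1.55) for Gja4, 1.48-fold (1.29 to 1.71) for Sema3g and 1.11-fold (0.969 to 1.27) for Hey1. None of the 3 genes differed 2-fold between these, where 17.9% of the 78 targets compared were at least 2-fold higher and 20.5% at least 2-fold lower.

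Ratios between the genes within the same cells do not depend on the scale, though they depend on the molecules counted. For each molecule of Gja4, endothelial-like cells held 0.521 (0.495 to 0.549), 0.492 (0.417 to 0.579) and 1.42 (1.38 to 1.46) molecules of Sema3g. For each molecule of Gja4 they held 0.432 (0.409 to 0.456), 0.545 (0.465 to 0.639) and 0.1997 (0.190 to 0.210) molecules of Hey1. For each molecule of Sema3g they held 0.828 (0.778 to 0.880), 1.11 (0.920 to 1.33) and 0.141 (0.134 to 0.148) molecules of Hey1. With molecules counted before the last error correction of the pipeline, an alternative added after the data were seen, Sema3g per Gja4 was 0.729, 0.530 and 1.72 and Hey1 per Gja4 0.540, 0.567 and 0.227. With raw molecules these were 1.32, 0.768 and 2.30, and 0.840, 0.756 and 0.284. In each of these counts Sema3g per Gja4 was higher, and Hey1 per Gja4 lower, in the adult library than in either embryonic one, and the gap for Sema3g between E18.5 EC and Adult BM cells was smallest with raw molecules. Adult endothelial-like cells also carried more mural molecules, and with cells limited to under 2 mural molecules, the ratio of E18.5 EC to Adult BM cells was 0.259 for Sema3g, 0.673 for Gja4 and 1.64 for Hey1.

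**Figure D1:**
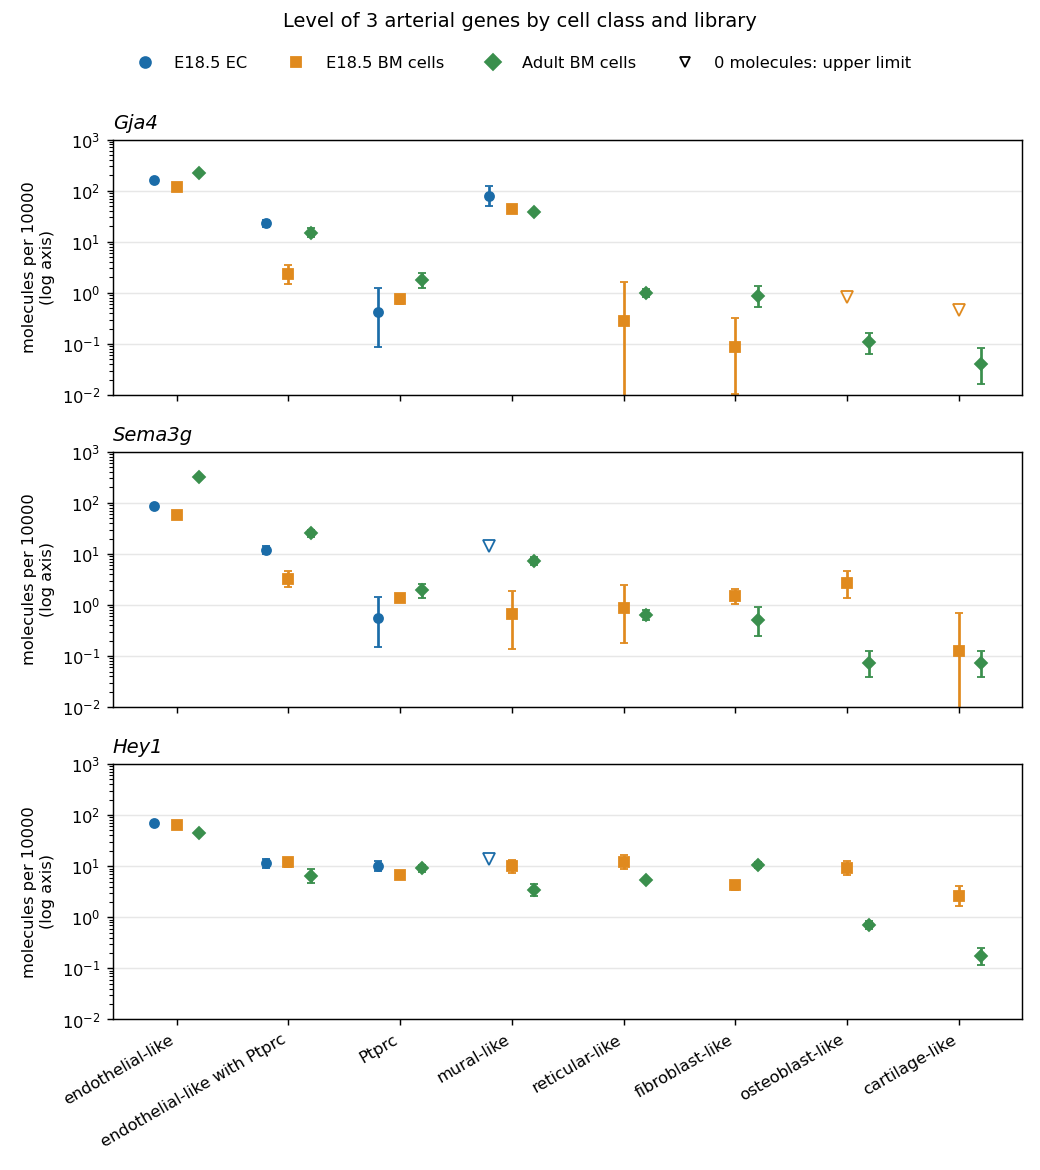
Molecules per 10000 panel molecules (log axis) of Gja4, Sema3g and Hey1 in cell classes of at least 10 cells, with points for the 3 libraries, bars for 95% Poisson intervals and open triangles for the upper limit of a count of 0. All 3 genes sit highest in endothelial-like cells. Gja4 is next highest in mural-like cells, at 39.0 to 80.2, while Hey1 spreads over Ptprc and stromal classes at up to 12.3.

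The 3 genes overlapped in the same cells. Because deeper cells show more genes, 50 molecules were drawn from every cell that had them, and 2244, 303 and 1757 endothelial-like cells remained. At this depth, at least 1 of the genes was present in 28.7% (26.8 to 30.6), 32.7% (27.4 to 38.3) and 55.3% (52.9 to 57.6) of them. At least 2 of the genes were present in 13.6% (12.2 to 15.1), 12.9% (9.32 to 17.2) and 34.4% (32.2 to 36.7). The embryonic libraries gave like shares, and the adult library gave higher ones. Before thinning, with median depths of 75, 83 and 123 molecules, the shares with at least 2 genes were 15.1%, 18.3% and 45.0%.

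Among single genes, Sema3g was present in 17.8% of thinned endothelial-like cells of E18.5 EC and in 50.7% of those of Adult BM cells. Gja4 was present in 15.7% and 34.2%. Hey1 was present in 15.0% and 15.9%, with overlapping intervals of 13.6 to 16.6 and 14.3 to 17.7, although its level was lower in the adult cells, so no order is read from these shares. As a background, Ptprc cells thinned in the same way had Gja4 in 0.213%, 0.302% and 0.850% of cells, Sema3g in 0.640%, 0.880% and 1.45%, and Hey1 in 1.71%, 2.05% and 4.76%. Their median depths before thinning were 96, 89 and 84 molecules.

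A gene was found more often where another was present. In E18.5 EC, Gja4 was found in 51.6% (46.6 to 56.6) of cells with Sema3g against 7.97% (6.77 to 9.30) of cells without it, and in 58.5% (53.0 to 63.8) of cells with Hey1 against 8.18% (6.99 to 9.502) without it. Hey1 was found in 46.1% (41.1 to 51.2) of cells with Sema3g against 8.29% (7.07 to 9.65) without it. The overlap in this library was close to symmetric, since Sema3g was found in 58.4% (53.0 to 63.6) of cells with Gja4 and 54.6% (49.1 to 60.0) of cells with Hey1. In Adult BM cells it was less symmetric. Sema3g was found in 90.0% (87.3 to 92.3) of cells with Gja4 and 89.3% (85.1 to 92.7) of cells with Hey1, whereas Gja4 was found in 60.8% (57.5 to 64.0) and Hey1 in 28.1% (25.2 to 31.2) of cells with Sema3g. Before thinning, Hey1 was found in 48.9% (45.9 to 52.0) of adult cells with Sema3g and in 48.5% (44.6 to 52.5) of those of E18.5 EC, with intervals that overlap, so no order between the libraries is read from this share.

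The combinations followed this pattern. After thinning, all 3 genes were present together in 6.28% (5.32 to 7.37), 4.29% (2.30 to 7.22) and 11.1% (9.67 to 12.7) of endothelial-like cells. Gja4 with Sema3g and without Hey1 was present in 2.90% (2.24 to 3.68) of cells of E18.5 EC and in 19.7% (17.9 to 21.6) of Adult BM cells, where it was the commonest combination at this depth. Before thinning the order in Adult BM cells turned, with all 3 genes together in 26.0% (24.0 to 28.0) and Gja4 with Sema3g only in 15.7% (14.0 to 17.4). Hey1 alone was present in 4.32% (3.52 to 5.25), 9.24% (6.23 to 13.1) and 1.20% (0.741 to 1.82) of cells. Gja4 with Hey1 and without Sema3g was found in 56 of the thinned cells of E18.5 EC and in 9 of those of Adult BM cells. Sema3g alone was the commonest single gene in E18.5 EC and Adult BM cells, with 6.68% and 16.7%.

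**Figure D2:**
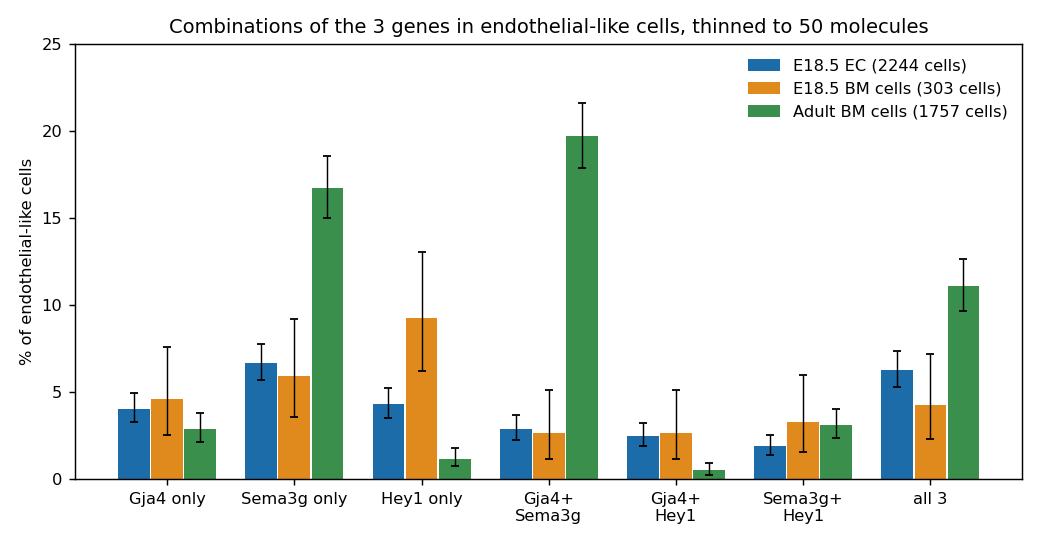
Share of endothelial-like cells (%) with each combination of Gja4, Sema3g and Hey1 after thinning to 50 molecules, with bars for the 3 libraries and 95% Clopper-Pearson intervals. Cells with none of the genes are not drawn. Gja4 with Sema3g reaches 19.7% in Adult BM cells against 2.90% in E18.5 EC, and Hey1 alone is lowest in Adult BM cells at 1.20%.

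Molecules of the 3 genes were spread unevenly over endothelial-like cells, and in E18.5 EC most of them lay in few cells. In E18.5 EC the 5% of endothelial-like cells with the most Gja4 held 78.2% of its molecules, and in Adult BM cells they held 40.1%. For Sema3g these shares were 62.3% and 30.7%, and for Hey1 they were 68.1% and 43.3%. The highest cell held 81 molecules of Gja4, 31 of Sema3g and 41 of Hey1 in E18.5 EC, and 94, 77 and 17 in Adult BM cells. For E18.5 BM cells, where 5% was 18 cells, the shares were 72.9% for Gja4, 52.7% for Sema3g and 49.6% for Hey1. Shares were higher in E18.5 EC than in Adult BM cells for each gene, but each gene was also present in a smaller part of the cells there. Gja4 was in 467 of 2954 cells of E18.5 EC and in 802 of 1837 of Adult BM cells. A fixed 5% then takes in more of the cells with the gene, so no order of unevenness is read from these shares.

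In E18.5 EC and Adult BM cells the levels of all 3 genes were lower where Stab1 or Apln was high. In E18.5 EC, endothelial-like cells with at least 5 molecules of Stab1 had 0.157 (0.141 to 0.176) of the Gja4 level of cells with none, and 0.212 of the Sema3g level and 0.162 of the Hey1 level. In Adult BM cells these ratios were 0.404 (0.374 to 0.435), 0.334 and 0.279, and in E18.5 BM cells the 20 such cells had 0 molecules of Gja4, 5 of Sema3g and 5 of Hey1. The ratios in those 20 cells were 0.538 (0.170 to 1.31) for Sema3g and 0.456 (0.145 to 1.10) for Hey1, with intervals that hold 1. Cells with at least 5 molecules of Apln, the ligand apelin that marks growing vessel tips, had 0.185, 0.241 and 0.299 of the levels of Gja4, Sema3g and Hey1 in E18.5 EC, with 0.0800, 0.191 and 0.421 for E18.5 BM cells and 0.0439, 0.152 and 0.132 for Adult BM cells. Stab1 did not divide the adult cells in steps, because Gja4 stood at 215 without Stab1, 331 with 1 to 4 molecules and 86.8 with at least 5.

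The genes were also read across Vwf, which encodes the clotting protein von Willebrand factor. Across cells with 0, 1 to 4 and at least 5 molecules of Vwf, the level of Gja4 per 10000 was 99.4, 160 and 333 for E18.5 EC, 55.1, 185 and 703 for E18.5 BM cells, and 253, 207 and 140 for Adult BM cells. Sema3g stood at 52.7, 94.5 and 156 in E18.5 EC and at 317, 329 and 326 in Adult BM cells. Hey1 stood at 55.4, 72.7 and 107 in E18.5 EC and at 40.6, 54.6 and 52.3 in Adult BM cells. Gja4 was therefore higher with more Vwf in both embryonic libraries and lower with it in the adult one. In the adult library the intervals of Sema3g overlapped, and Hey1 was 1.29-fold (1.14 to 1.46) higher with at least 5 molecules of Vwf than with none. The highest bin of E18.5 BM cells held 14 cells. The difference between stages was not tested.

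**Figure D3:**
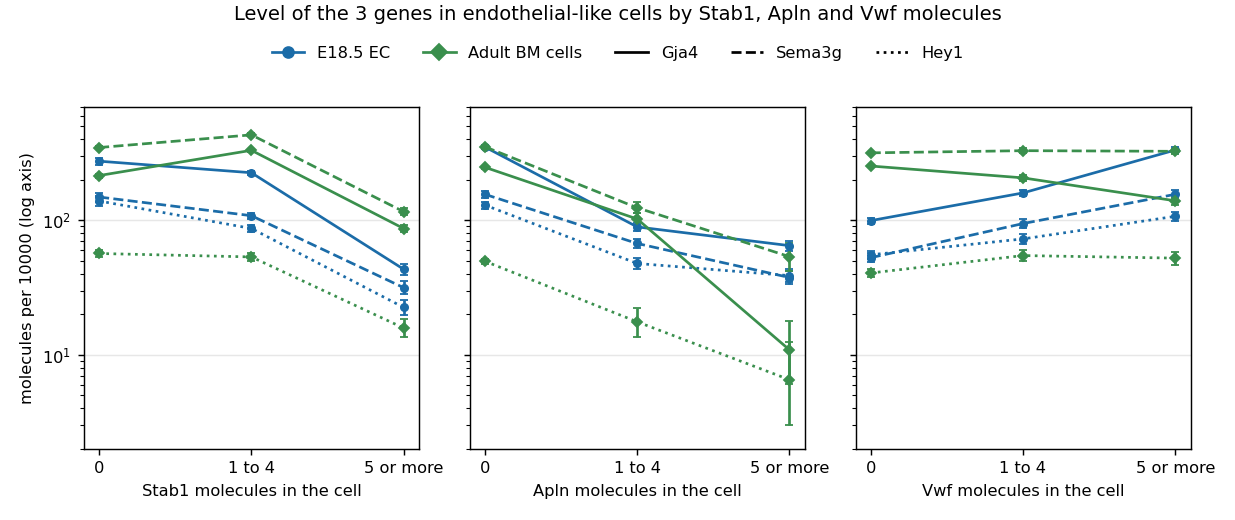
Level of Gja4, Sema3g and Hey1 (molecules per 10000, log axis) in endothelial-like cells with 0, 1 to 4 or at least 5 molecules of Stab1, Apln or Vwf, in E18.5 EC and Adult BM cells, with 95% Poisson intervals. All lines are lower at 5 or more molecules of Apln than at 0. Across Vwf, Gja4 goes from 99.4 to 333 in E18.5 EC and from 253 to 140 in Adult BM cells.

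The other targets of the panel were then compared between endothelial-like cells with 2 or 3 of the genes and those with none, which numbered 446 and 2007, 69 and 229, and 826 and 673 cells. Of 67, 57 and 88 targets with at least 20 molecules, 20.9%, 19.3% and 17% were at least 2-fold higher and 23.9%, 31.6% and 33% at least 2-fold lower in cells with the genes. When cells were thinned before grouping, 14.8%, 12.2% and 13.4% were higher and 25.9%, 24.4% and 37.3% lower. Among cells with under 2 molecules of mural or stromal markers (Cxcl12 not counted), 15.5%, 15% and 8.82% were higher and 31%, 20% and 29.4% lower. These are shares of 58, 40 and 34 targets. In the adult library this limit left a far smaller set of cells. Their thinned share with at least 2 genes had limits of 21.6 to 36.2, against 32.2 to 36.7 in all adult endothelial-like cells. Adult ratios under this limit therefore rest on few cells and are given without intervals. The 3 genes chose these cells, so their own differences are no result here. Cells with the genes were deeper, with medians of 112 against 67 molecules in E18.5 EC and 168 against 93 in Adult BM cells.

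In E18.5 EC, Cxcl12 and Mgp had the most molecules among the targets that were highest in cells with 2 or 3 of the genes. Cxcl12, the chemokine that retains haematopoietic stem cells, stood at 345 per 10000 with the genes and 4.04 without, a ratio of 85.5 (66.7 to 112). Mgp, an inhibitor of calcification, stood at 312 and 10.2, a ratio of 30.6 (26.0 to 36.1). After thinning before grouping, these ratios were 51.9 and 17.0. For E18.5 BM cells, Cxcl12 had a ratio of 14.1 (8.59 to 24.3) and Mgp one of 10.2 (8.44 to 12.4). Dkk2, a secreted modulator of Wnt signalling, was 27.6-fold higher on 31 and 3 molecules (8.62 to 141). The secreted protein gene Cytl1 had 28 molecules with the genes and 0 without, which makes it at least 24.9-fold higher. The calcium-binding protein gene S100a4 was 6.50-fold higher, the transcription factor gene Mecom 6.42-fold (5.75 to 7.17), the phosphatase gene Alpl 5.79-fold and the Notch receptor gene Notch3 5.50-fold. These 8 were the highest of the panel in that library. Mural markers were also higher in the same cells. Of the 4 genes of the mural list, to which Notch3 belongs, 3 were at least 2-fold higher, against 20.9% of all targets compared. Acta2 stood at 3.85 and Rgs5 at 4.02, or 3.15 and 2.49 after thinning. For E18.5 BM cells all 4 were at least 2-fold higher, against 19.3% of all targets compared. Acta2 stood at 48.1 there, Rgs5 at 63.7 and Notch3 at 118 (20.1 to 4743) on 48 molecules against 1. Among E18.5 EC cells with under 2 molecules of mural or stromal markers, the ratios were 73.5 for Cxcl12, 37.7 for Mgp and 73.5 for Dkk2. That of Dkk2 rests on no more than the 31 and 3 molecules above, so no rise from 27.6 is read from it. Cytl1 was at least 24.5-fold higher in these, S100a4 5.53-fold and Mecom 6.71-fold. Alpl and Notch3 had too few molecules to be compared. Beyond this, the part of mural markers in the other ratios was not tested.

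Among the lowest targets in the same cells of E18.5 EC was the ligand gene Wnt9b, with 0 molecules against 36 and so at least 4.49-fold lower. Wnt2, another ligand gene, had a ratio of 0.206 and the cyclin gene Ccnd1 one of 0.274. Apln and Stab1, the 2 measured members of the list of sinusoidal and capillary genes, had ratios of 0.380 (0.357 to 0.405) and 0.302 (0.284 to 0.321).

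In Adult BM cells, 6 of the 8 highest targets in cells with the genes were on lists of other cell types. Acta2 was 289-fold, Rgs5 45.1-fold and Notch3 14.0-fold higher, and these were on the mural list. Of that list 4 of 4 genes were at least 2-fold higher, against 17% of all targets compared. Col10a1, a collagen of hypertrophic cartilage, was 12.2-fold higher, and Bglap and Bglap2, genes of osteocalcin, were 8.40-fold and 7.62-fold higher. After thinning before grouping, Acta2 was 3.22-fold, Rgs5 5.81-fold and Notch3 3.69-fold higher, and Col10a1, Bglap and Bglap2 were lower, at 0.544, 0.711 and 0.757. Beyond the values that follow, the part of such markers in the other ratios was not tested here either. Mecom was 11.5-fold higher (8.98 to 15.0), 11.4-fold after thinning and 10.3-fold among cells with under 2 molecules of mural or stromal markers. Dkk2 was 9.41-fold higher on 65 and 3 molecules.

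The lowest targets in Adult BM cells were Wnt9b (1 molecule against 25, ratio 0.0174), Apln (0.0435), the matrix genes Cilp (0.109) and Prg4 (0.114), and the cyclin gene Ccne1 (0.121). Stab1 was also low at 0.195. Mecom, Dkk2 and Notch3 were among the highest 8 at both stages, and Wnt9b was among the lowest 5 at both. Cxcl12 and Mgp stood at ratios of 1.01 and 1.09 in Adult BM cells, where cells without the genes held 566 and 628 per 10000. Among the small set of adult cells with under 2 molecules of mural or stromal markers, the ratios were 3.19 for Cxcl12 and 0.908 for Mgp. Fbln5, an elastic fibre gene, was 4.92-fold higher in all adult endothelial-like cells and 21.2-fold in that small set.

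By list, the other measured arterial genes were counted in the cells with these transcripts. Of 18 other arterial genes on the list, 9 could be compared in each library. Of these, 3, 5 and 2 were at least 2-fold higher, with 1 at least 2-fold lower in the adult library. Over all targets compared, 20.9%, 19.3% and 17% were at least 2-fold higher, and 33% lower in the adult library. The adult count of higher genes is near that share. The median ratio of the 9 was 1.77, 2.57 and 1.09, beside 0.853, 0.789 and 0.636 over all targets compared. The adult one that was lower was Vwf, at 0.167 (0.155 to 0.180), against 1.05 (0.987 to 1.11) in E18.5 EC and 5.48 (4.01 to 7.59) for E18.5 BM cells. The stem cell factor gene Kitl had ratios of 1.08 in E18.5 EC and 1.84 in Adult BM cells. Of 13 further genes of Notch signalling on the list, the panel measured Notch3 and Nrarp, an inhibitor that Notch itself induces, and Nrarp had ratios of 0.764 and 1.33.

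Wnt ligands and frizzled receptors, which the panel was made to measure, were counted in the same way, against the 20.9% of all compared targets that were at least 2-fold higher and 23.9% lower in E18.5 EC and the 17% and 33% in Adult BM cells. Of 3 ligands compared in E18.5 EC, 2 were at least 2-fold lower (Wnt2 and Wnt9b) and 0 higher, and of 5 in Adult BM cells, 3 were at least 2-fold lower (Wnt4, Wnt9b and Wnt11) and 0 higher. Of 7 frizzled receptors in E18.5 EC, Fzd9 was higher at 3.12 on 14 and 12 molecules, and Fzd5 and Fzd7 were lower at 0.434 and 0.441. Of 6 in Adult BM cells, Fzd5, Fzd8 and Fzd9 were lower and 0 higher. Fzd6 stood at 1.57 (1.43 to 1.73) in E18.5 EC and 1.23 (1.11 to 1.38) in Adult BM cells. A list of 5 cell cycle genes, chosen after its values were seen, had 4 members at least 2-fold lower in E18.5 EC and 5 in Adult BM cells, with Top2a at 0.387 and 0.149.

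**Figure D4:**
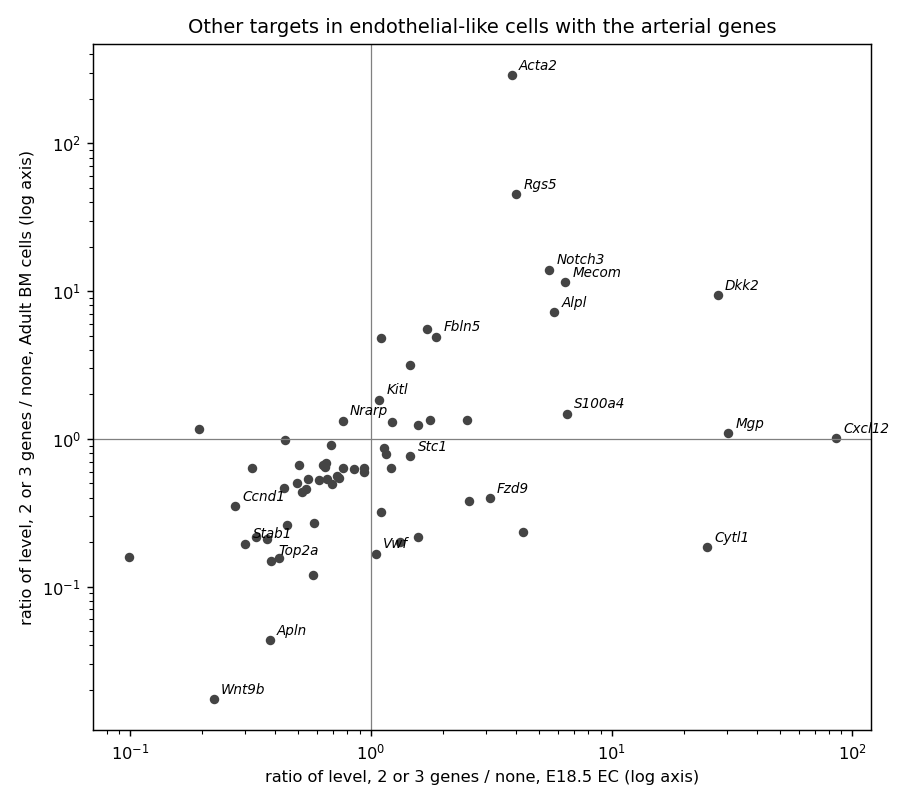
Ratio of the level of each other target between endothelial-like cells with 2 or 3 of Gja4, Sema3g and Hey1 and those with none, in E18.5 EC (x, log axis) and Adult BM cells (y, log axis), for 65 targets compared in both. Targets with no molecule on one side are drawn at their bound. Of these, 18 are above 1 and 33 below 1 in both, Mecom and Dkk2 are high in both, and Cxcl12 and Mgp lie at 85.5 and 30.6 for E18.5 EC and at 1.01 and 1.09 for Adult BM cells.

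Outside the endothelium, by molecules after the last error correction of the pipeline, Gja4 and Sema3g were close to absent from haematopoietic cells, and Hey1 was not. Cells with Ptprc and under 5 molecules of Pecam1 and Kdr numbered 542, 9923 and 1253. Gja4 stood at 0.422 (3 molecules), 0.753 and 1.75 per 10000 in them, and Sema3g at 0.563 (4 molecules), 1.38 and 1.93. Hey1 stood at 10.1 (7.92 to 12.8), 6.65 (6.198 to 7.13) and 9.06 (7.84 to 10.4). Endothelial-like cells were thus 388-fold (133 to 1884), 156-fold (124 to 197) and 129-fold (94.2 to 183) higher than Ptprc cells for Gja4 and 152-fold, 41.7-fold and 166-fold higher for Sema3g, against 6.99-fold (5.52 to 8.97), 9.60-fold (8.29 to 11.1) and 4.99-fold (4.30 to 5.80) for Hey1. All 3 genes were at least 2-fold higher in endothelial-like cells of every library, as were 44.6%, 31.4% and 28.6% of the targets compared in the 3 libraries.

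These contrasts depended on the molecules that were counted. The error correction of the pipeline (distribution-based, DBEC) drops molecules of low read depth. With the molecules of the step before it, Gja4 was 7.77-fold, 74.1-fold and 16.6-fold higher in endothelial-like cells. Sema3g was then 4.38-fold, 22.2-fold and 13.7-fold higher, and Hey1 3.25-fold, 7.24-fold and 3.72-fold. At that step the Ptprc cells of E18.5 EC held 226 molecules of Gja4, 292 of Sema3g and 292 of Hey1, so Sema3g and Hey1 were alike there. Hey1 remained the gene with the smallest contrast under raw molecules too, at 4.40-fold, 7.60-fold and 4.19-fold. Each Hey1 molecule rested on as many reads in Ptprc cells as in endothelial-like cells. These were 136 and 136 reads, 40.1 and 39.4 reads, and 29.8 and 28.8 reads in the 3 libraries. Sema3g in E18.5 EC had 196 and 209 reads, the first on 4 molecules, so this measure does not tell Hey1 and Sema3g apart. The cells from which these molecules came were not tested. In E18.5 EC the 72 molecules of Hey1 lay in 3.32% of Ptprc cells, with 18 in 1 cell, and the ratio was 19.6 when the limit between the classes was set at 3 molecules of Pecam1 and Kdr.

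Hey1 was not spread evenly over haematopoietic cells. Hlf, a transcription factor gene of haematopoietic stem and progenitor cells, divided the Ptprc cells, and cells with at least 5 molecules of the osteoclast markers Acp5, Ctsk and Atp6v0d2 were kept apart. Hey1 in Adult BM cells had a level of 31.7 (26.6 to 37.6) in 317 cells with Hlf and at 3.88 (2.99 to 4.95) in 934 cells with neither, a ratio of 8.18 (6.03 to 11.2). Its level in E18.5 BM cells was 14.0 (12.3 to 16.0) in 1486 cells with Hlf and 6.94 (6.34 to 7.57) in 7058 with neither, a ratio of 2.03 (1.72 to 2.37). Of the targets compared, 14.7% in the embryonic and 24.7% in the adult library were at least 2-fold higher in Ptprc cells with Hlf, and 30.4% and 16.9% at least 2-fold lower. Hey1 was the 1 gene of the 3 above 2-fold in E18.5 BM cells, and Gja4 and Sema3g were lower there, at 0.230 and 0.471. In Adult BM cells Gja4 was also above 2-fold, at 3.19 on 17 and 21 molecules, of which 1 cell held 8.

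Among Ptprc cells with under 5 molecules of mural, fibroblast, osteoblast and cartilage markers together, a limit set after the data were seen, adult Hlf cells had a Hey1 level of 51.2 (38.0 to 67.6) from 50 molecules in 135 cells, against 10.5 (7.06 to 15.1) in cells with neither. The interval of that level holds the 45.2 of adult endothelial-like cells. Gja4 had 1 molecule and Sema3g 2 in those 135 cells. In E18.5 BM cells the same limit gave 14.9 (13.0 to 16.9) in 1410 cells and 8.02 (7.26 to 8.84) in cells with neither, a ratio of 1.85, which lies below 2-fold. Cells with osteoclast markers had little Hey1, with levels of 0.628 and 2.35 (1.86 to 2.94) in the embryonic libraries, and there were 2 such cells in the adult one. The 18 Hlf cells of E18.5 EC held 3 molecules of Hey1, a level of 8.01 (1.65 to 23.4). The 357 Ptprc cells there with neither marker held 67, a level of 18.9 (14.6 to 24.0). The ratio was 0.424 (0.0854 to 1.29), with an interval that holds 1, so a higher level with Hlf was not seen in that library.

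Endothelial-like cells that also had Ptprc numbered 482, 572 and 416. They had Gja4 at 22.8, 2.32 and 15.0, Sema3g at 12.0, 3.23 and 25.4 and Hey1 at 11.6, 11.8 and 6.46, all between the levels of endothelial-like and Ptprc cells except Hey1 in Adult BM cells, which was below both. In E18.5 EC the ratio of Sema3g to Gja4 in them was 0.528 (0.412 to 0.673), with an interval that holds that of endothelial-like cells, and in Adult BM cells it was 1.69 (1.33 to 2.17). In E18.5 BM cells they held 5.09 (3.23 to 8.34) molecules of Hey1 per molecule of Gja4, and the Ptprc cells there held 8.84. Doublets were not called, and their part was not tested.

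Mural-like cells, led by Acta2, Tagln and Rgs5 with neither Ptprc nor 5 molecules of Pecam1 and Kdr, had the highest Gja4 of the named classes outside the endothelium. They numbered 11, 123 and 212. Gja4 stood at 80.2 (49.6 to 123), 43.9 (38.0 to 50.4) and 39.0 (36.0 to 42.3) in them, on 21, 200 and 607 molecules. Its ratio to endothelial-like cells was 0.489 (0.303 to 0.749), 0.375 (0.316 to 0.444) and 0.172 (0.159 to 0.187), and its ratio to Ptprc cells 190, 58.4 and 22.3. After thinning, Gja4 was present in 18.03% of the embryonic and 24.3% of the adult mural-like cells of the marrow libraries.

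Sema3g and Hey1 were counted in the same cells. Sema3g had 0 molecules in the mural-like cells of E18.5 EC, 3 in those of E18.5 BM cells, and 115 or 7.40 (6.11 to 8.88) per 10000 in those of Adult BM cells. Hey1 had 0, 45 and 54 molecules, or 9.88 (7.21 to 13.2) and 3.47 (2.61 to 4.53) per 10000 in the embryonic and adult marrow libraries. Mural-like cells held 0.0150 (0.00307 to 0.0445) and 0.190 (0.154 to 0.232) molecules of Sema3g per molecule of Gja4 there, against 0.492 and 1.42 in endothelial-like cells. In Adult BM cells the contrast between the genes depended on the rule that divides the classes. The ratio of mural-like to endothelial-like cells was 0.172 for Gja4, 0.0231 for Sema3g and 0.0768 for Hey1. With Pecam1 and Kdr also at least 5% of an endothelial-like cell it was 0.310, 0.250 and 0.268. Under that rule, cells with 5 or more molecules of Pecam1 and Kdr but under 5% could join the mural-like class, so both classes changed. All 3 genes were at least 2-fold lower there than in endothelial-like cells of both marrow libraries, as were 56.3% of the 71 and 64.2% of the 95 targets compared.

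Mural-like cells with and without molecules of Pecam1 and Kdr were also set apart. In mural-like cells with no molecule of Pecam1 or Kdr, a limit set after the data were seen, Gja4 stood at 78.0, 43.4 and 35.0 in the 3 libraries, and Sema3g in Adult BM cells stood at 1.88 (1.22 to 2.77) in place of 7.40. Conversely, the 239 adult endothelial-like cells with at least 5 mural molecules had Gja4 at 199, Sema3g at 326 and Hey1 at 46.9, close to the 238, 314 and 42.4 of those with under 2.

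Of the 3 genes, Hey1 had the highest ratio of stromal to endothelial-like cells in both marrow libraries. The 1318 cells of E18.5 BM cells led by reticular, fibroblast-like, osteoblast or cartilage markers held 3 molecules of Gja4, 50 of Sema3g and 202 of Hey1. The 3686 of Adult BM cells held 154, 108 and 986. The stromal level was 0.000662 and 0.00141 of the endothelial-like one for Gja4, 0.0224 and 0.000696 for Sema3g, and 0.0817 (0.0675 to 0.0988) and 0.0451 (0.0417 to 0.0487) for Hey1. The adult values depended on the molecules counted, with 0.0397 for Gja4, 0.0489 for Sema3g and 0.126 for Hey1 before the distribution-based correction, and 0.0254, 0.0233 and 0.0831 with raw molecules. All 3 genes were at least 2-fold lower in stromal cells of both libraries, as were 36.4% of the 99 and 47.2% of the 108 targets compared. The 14 stromal cells of E18.5 EC held 0 molecules of Gja4 and Sema3g and 5 of Hey1.

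Within the stroma, Hey1 differed by class. In Adult BM cells its level was 10.7 (9.37 to 12.2) in 371 fibroblast-like cells, led by Postn, Aspn and Ccn3, and at 5.41 (4.99 to 5.86) in 2611 reticular-like cells, led by Lepr, Adipoq, Cp and Cxcl12. It stood at 0.722 (0.602 to 0.858) in 305 osteoblast-like and 0.172 (0.116 to 0.245) in 399 cartilage-like cells. The adult fibroblast-like level was 62.3-fold (42.5 to 94.5) that of cartilage-like cells. In E18.5 BM cells Hey1 stood at 12.3 (8.92 to 16.6) in 104 cells led by the reticular list, 9.17 (6.58 to 12.4) in 227 osteoblast-like, 4.24 (3.44 to 5.17) in 900 fibroblast-like and 2.66 (1.65 to 4.07) in 87 cartilage-like cells. The intervals of the first 2 of these overlapped, and so did those of the last 2. The 104 embryonic cells held 3019.8 per 10000 of the fibroblast markers against 368 of the reticular ones, so their name is uncertain. Adult osteoblast-like and cartilage-like cells were the deepest, with medians of 5613 and 4107 molecules. A level is a share of the molecules of a class, so its order need not hold per cell. The adult fibroblast-like, reticular-like, osteoblast-like and cartilage-like cells held 232, 596, 128 and 30 molecules of Hey1. Per cell, osteoblast-like cells thus held more Hey1 than reticular-like ones, and the gap between fibroblast-like and cartilage-like cells was smaller than by level.

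Sema3g was low in the stroma of E18.5 BM cells, with 34 molecules or 1.49 (1.03 to 2.08) in fibroblast-like and 12 molecules or 2.68 (1.39 to 4.69) in osteoblast-like cells. Ptprc cells of that library stood at 1.38 (1.18 to 1.61), with an interval that overlaps both of these. Gja4 reached at most 0.990 (0.813 to 1.19) in a stromal class, the adult reticular-like cells.

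Over the 21 classes of at least 50 cells in the 3 libraries, Spearman's rho of level was 0.69 between Gja4 and Sema3g, 0.61 between Gja4 and Hey1 and 0.56 between Sema3g and Hey1. The points share libraries and depth, so these are descriptions. The targets most like Gja4 were Nrarp (0.84), Fzd4 (0.79), Igfbp7 (0.78), Vwf (0.74) and the mural gene Rgs5 (0.70). Those most like Sema3g were Pecam1 (0.86), Fzd6 (0.86), Nrarp (0.83), Vwf (0.80) and Mecom (0.79). Among those most like Hey1 were Apln (0.76), Mecom (0.71), Stc1 (0.69) and Fzd4 (0.67), with Pecam1 not among its first 5.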

How the data were processed

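The study tagged transcripts with unique molecular identifiers in microwells (BD Rhapsody) and amplified a custom panel of targets. The files deposited hold molecule and read counts for each amplicon in a cell, made by the authors with the BD Targeted Rhapsody Analysis Pipeline 1.8 per the file headers (the methods name another release) with mm10 as the build; molecules were counted raw, after substitution error correction (RSEC) and after DBEC, with no normalization. DBEC counts, 21.2% to 41.6% of raw molecules by library, were summed over amplicons of a target.

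A cell needed 20 molecules and 5 targets to be used. Cells with neither Ptprc nor 5 molecules of Pecam1 and Kdr took the marker list of at least 5 molecules that exceeded its library share most. With 1 library per group no test was made: intervals are exact Poisson, conditional binomial (ratios) or Clopper-Pearson, at 95%. Those of ratios were checked on simulated independent Poisson counts. Such counts lack the clustering of molecules in cells, so the check does not cover it. Thinning used random seed 1, and a count of 0 was bounded with 3 molecules. Targets were named as the 8 highest and 5 lowest in E18.5 EC and in Adult BM cells with at least 20 molecules, and the 5 most alike in Spearman's rho, of which some are not reported here. The members, lists and tests were chosen with earlier results of these data known. Python 3.11.15, numpy 2.4.6, pandas 2.3.3, scipy 1.17.1 and matplotlib 3.10.9 were used.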

Additional observations from a re-analysis of the deposited data

Results flagged for a closer look

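For 5 targets, the ratio of level between endothelial-like cells with 2 or 3 of Gja4, Sema3g and Hey1 and cells with none lay on opposite sides of 1 in E18.5 EC and Adult BM cells, with both intervals clear of 1. Cytl1 was at least 24.9-fold higher with the genes in E18.5 EC and stood at 0.185 in Adult BM cells. Fzd9 stood at 3.12 on 14 and 12 molecules in E18.5 EC and at 0.398 on 11 and 12 in Adult BM cells. Stc1, a secreted glycoprotein gene, stood at 1.46 and 0.762, and Cdh13, the gene of T-cadherin, at 1.15 and 0.786. Nrarp stood at 0.764 in E18.5 EC and 1.33 in Adult BM cells. After thinning before grouping, Stc1 stood at 1.11 in Adult BM cells and Cdh13 at 1.09, so these 2 no longer differed in direction, whereas Nrarp stood at 0.760 and 1.16. Among cells with under 2 molecules of mural or stromal markers, Stc1 stood at 1.45 and 0.573 and Cdh13 at 1.25 and 0.591, with directions that were opposite again. The adult values there rest on a small set of cells. The difference between the stages was not tested in any of them.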

How the results depend on the processing

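Of 231 values of 27 results under alternatives, 131 stayed within the counting interval of the value reported and 1 reversed: the Gja4 ratio of E18.5 EC to Adult BM cells was 1.35 without the 5 most abundant other targets of each library. No paired analysis was possible because each group had 1 library, and for the same reason no replicate could be left out. Values are given in the order E18.5 EC, E18.5 BM cells, Adult BM cells where 3 stand together, and the cause of a move was not tested.

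With RSEC molecules, the ratio of endothelial-like to Ptprc cells was 7.77, 74.1 and 16.6 for Gja4, 4.38, 22.2 and 13.7 for Sema3g and 3.25, 7.24 and 3.72 for Hey1. The ratio of E18.5 EC to Adult BM cells was then 0.308 for Sema3g and 1.73 for Hey1, the adult mural-like ratio of Gja4 0.232, the stromal ratio of Hey1 0.111 in the embryonic and 0.126 in the adult marrow library, and the adult share with at least 2 genes 30.9%. With raw molecules, the ratios to Ptprc cells were 12.0, 76.6 and 21.6 for Gja4, 11.3, 25.6 and 23.1 for Sema3g and 4.40, 7.60 and 4.19 for Hey1, those between stages 0.523 for Gja4 and 0.300 for Sema3g, the adult mural-like ratio of Gja4 0.192, the adult stromal ratio of Hey1 0.0831, and the shares with at least 2 genes 10.6% in E18.5 EC and 29.7% in Adult BM cells.

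Without the 5 most abundant targets, the stage ratios were 0.495 for Sema3g and 2.91 for Hey1, the ratios to Ptprc cells in E18.5 BM cells 83.2 for Gja4 and 22.3 for Sema3g, that of Hey1 10.02, 5.14 and 4.12, the adult mural-like ratio of Gja4 0.152, and the stromal ratio of Hey1 0.145 and 0.131 in those libraries. With Pecam1 and Kdr also at least 5% of a cell, the stage ratios were 0.544 for Gja4, 0.202 for Sema3g and 1.19 for Hey1, the adult ratios to Ptprc cells 193, 246 and 7.63 for the 3 genes, that of Hey1 in E18.5 EC 9.81, the adult mural-like ratio of Gja4 0.310 and the adult stromal ratio of Hey1 0.0353. With at least 10 molecules of Pecam1 and Kdr, the stage ratio of Gja4 was 0.690, the adult mural-like one 0.201 and the adult Ptprc ratio of Hey1 6.15. Under both of these rules, cells that fell short could join the Ptprc, mural-like or stromal classes. With at least 3, the stage ratios were 0.766 for Gja4 and 0.281 for Sema3g and the Ptprc ratio of Hey1 in E18.5 EC 19.6. With few mural or stromal molecules in endothelial-like cells, the stage ratios were 0.584 for Gja4 and 1.99 for Hey1, the adult Ptprc ratio of Hey1 3.78, the adult mural-like ratio of Gja4 0.145, the adult stromal ratio of Hey1 0.0596 and the adult share with at least 2 genes 28.5%.

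Among alternatives added after the data were seen, the stage ratio of Gja4 was 0.673 in cells with under 2 mural molecules and the adult mural-like ratio 0.155 without Pecam1 or Kdr. The shares with at least 2 genes were 15.1%, 18.3% and 45.0% without thinning, 9.15%, 7.69% and 26.8% at 30 molecules per cell, and 20.8%, 18.8% and 44.9% at 80. The adult share was above both embryonic ones at each of these depths.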

Other observations

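Cells that met no class held the genes unevenly. The 35 such cells of E18.5 EC, with a median of 33 molecules, had Gja4 at 33.8 (12.4 to 73.5), Sema3g at 28.1 and Hey1 at 39.4 per 10000, on 6, 5 and 7 molecules. The 530 of E18.5 BM cells had 3, 5 and 14 molecules. The 535 of Adult BM cells had 26, 98 and 113 molecules, or 3.77 (2.43 to 6.05) of Sema3g per molecule of Gja4, against 1.42 in adult endothelial-like cells, and 1 cell held 27 of the Hey1 molecules.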
